A study of Mus musculus with 23 samples.

Results

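The transforming growth factor beta (TGF-beta) superfamily genes described here are the ligands Tgfb1, Tgfb2 and Tgfb3, the inhibin and activin subunits Inha, Inhba and Inhbb, the antagonists Fst and Fstl3, and the intracellular inhibitor Smad7. They were chosen by name, and their probes were found through the mouse RefSeq transcript given for each probe of the array. This gave 10 of 55681 probes and 9 of 20145 named genes, since Tgfb2 had 2 probes and the others 1 each. TM4 cells, an immortalized mouse Sertoli cell line, were treated for 48 hr with 100 μM of a plasticizer or plasticizer metabolite in 1% DMSO, or with 1% DMSO alone. MEHP, the monoester metabolite of the phthalate DEHP, was set beside DINCH, a commercial diisononyl cyclohexane diester, the dioctyl diesters DOM (a maleate) and DOS (a succinate), and BDB, a butanediol dibenzoate. There were 4 arrays for each group and 3 for DOS, each from a biological replicate, and all groups shared the cell line, the time and the vehicle. The comparison asked how each compound altered gene expression relative to the vehicle, and whether the candidate replacements differed from MEHP and from one another.

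TGF-beta ligands and activins are secreted dimers that bind type II and type I serine/threonine kinase receptors, which phosphorylate SMAD proteins that enter the nucleus and regulate target genes. Activins are dimers of beta subunits, encoded by Inhba and Inhbb, whereas an inhibin pairs a beta subunit with the alpha subunit encoded by Inha and opposes activin. Follistatin (Fst) and follistatin-like 3 (Fstl3) bind activins and keep them from their receptors, and SMAD7 blocks the activated type I receptor. In the testis, Sertoli cells secrete inhibin B, the dimer of the alpha and beta B subunits, which restrains the release of follicle-stimulating hormone from the pituitary.

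All 9 genes were well above background on each of the 23 arrays and were tested with every compound. A level is given as log2 of the processed intensity relative to the array's 75th percentile, so levels of different probes cannot be compared with each other. Genes whose limma adjusted p was below 0.05 and whose level changed over 1.5-fold were called altered, and a difference is the log2 level with compound minus that with DMSO. The 75th percentile of the arrays lay between 204.6 and 350.7 intensity units, and 43.4% to 52.2% of spots were well above background. Of 17 Sertoli cell markers, 8 were above background on all DMSO arrays (among them Sox9, Gata4, Dhh, Kitl and Dmrt1), and 8 were above it on no DMSO array, among them Wt1, Amh and Fshr. Of the markers of other cells, Acta2, Col1a1 and Pdgfra of peritubular myoid cells or fibroblasts, Cyp17a1 of Leydig cells, Pecam1 of endothelium and Csf1r of macrophages were above background on all 23 arrays. Each of these lists also held markers above background on no array, namely Myh11, the Leydig cell genes Cyp11a1, Hsd3b1 and Lhcgr, Cdh5 and Tek of endothelium, and Ptprc and Adgre1 of macrophages, and none of 4 germ cell markers was above it on a DMSO array. Several defining markers of a Sertoli cell were thus not above background with DMSO. In a bulk measurement, fewer cells expressing a gene and less RNA per cell cannot be told apart.

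The sequence upstream of 3 of the genes is shown because Tgfb2 rose with MEHP and DINCH whereas Tgfb1 and Inhbb rose with DOM. Inha rose with DOM and DINCH, and its window is described below but not shown. RefSeq windows of 250 bases before the start site were held for 6 of the 9 genes (Tgfb1, Tgfb2, Inha, Inhba, Inhbb and Fstl3; build GRCm38.p6). They were searched on both strands for 7 motifs. The TATA box was searched for as TATAAA, and the box bound by SP1 (GC box) as GGGCGG. The E box was taken in its palindromic form CACGTG, and the cAMP response element by its core TGACG. The AP-1 site was given as TGANTCA with 1 free base, and the antioxidant response element by its core TGACNNNGC with 3 free bases. The SMAD box was the palindrome GTCTAGAC. The windows run 5′ to 3′ on the gene's strand, and capitals mark a match on either strand. Tgfb1 lies on the plus strand at chr7:25686752-25687001, Tgfb2 on the minus strand at chr1:186705990-186706239 and Inhbb on the minus strand at chr1:119422249-119422498.
Tgfb1: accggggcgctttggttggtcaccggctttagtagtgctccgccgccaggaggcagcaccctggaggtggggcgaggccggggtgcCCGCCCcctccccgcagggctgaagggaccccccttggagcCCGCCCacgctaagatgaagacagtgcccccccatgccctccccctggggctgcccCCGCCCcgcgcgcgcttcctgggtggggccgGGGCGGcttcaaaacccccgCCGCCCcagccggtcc
Tgfb2: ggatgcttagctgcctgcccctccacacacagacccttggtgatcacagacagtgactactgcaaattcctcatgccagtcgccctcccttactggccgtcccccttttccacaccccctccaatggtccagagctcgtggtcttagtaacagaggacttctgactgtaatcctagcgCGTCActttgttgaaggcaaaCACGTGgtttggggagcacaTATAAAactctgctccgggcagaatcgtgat
Inhbb: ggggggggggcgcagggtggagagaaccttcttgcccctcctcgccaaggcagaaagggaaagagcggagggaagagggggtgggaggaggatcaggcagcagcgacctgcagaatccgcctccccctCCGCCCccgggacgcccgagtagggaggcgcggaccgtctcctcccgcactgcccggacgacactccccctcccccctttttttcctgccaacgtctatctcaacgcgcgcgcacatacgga

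The Tgfb1 window held 5 GC boxes and no other match, with 75.2% G and C against a median of 52.4% over 32851 promoters. The Tgfb2 window, at 53.6% G and C, had no GC box. It held a TATA box from 31 to 26 bases before the start site, an E box from 51 to 46 bases before it and, on the opposite strand, the core of a cAMP response element from 72 to 68 bases before it. The Inhbb window held 1 GC box and 68.0% G and C. Of the other windows, Inhba had a TATA box, and Fstl3 had 4 GC boxes, some overlapping, and a TATA box on the opposite strand. The Inha window had none of the 7 motifs and, like that of Tgfb2, 53.6% G and C. Whether a motif goes with a response to a compound was not tested, and no window was held for Tgfb3, Fst or Smad7. Among all promoters of this length, 32.7% held the GC box, 12.4% the TATA box, 6.02% the E box and 17.8% the cAMP response element core, and the AP-1 site (6.75%), the antioxidant core (10.2%) and the SMAD box (0.167%) were in none of the 6 windows. These matches describe letters and do not show that a factor bound there.

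Altogether, MEHP altered 1 of the 9 genes, DINCH 3, DOM 5, and BDB and DOS none. Over all genes tested, 1.69% were called with MEHP (202 of 11948), 8.26% with DINCH (984 of 11913), 20.5% with DOM (2463 of 12005), and 0% with BDB (of 11969) and with DOS (of 11936). Tgfb2 rose with MEHP, where 1.13% of all genes were called higher and 0.561% lower. With DINCH, Tgfb2 and Inha rose and Smad7 fell, beside 4.25% higher and 4.02% lower over all genes. With DOM, beside 9.9% higher and 10.6% lower, Tgfb1, Tgfb3, Inha and Inhbb rose and Fst fell, while Tgfb2 did not pass the test. The genes named in the study's own pathway results from these arrays include the TGF-beta ligands, so their directions are not independent of that choice. The 5 comparisons share the 4 DMSO arrays.

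**Figure D1:**
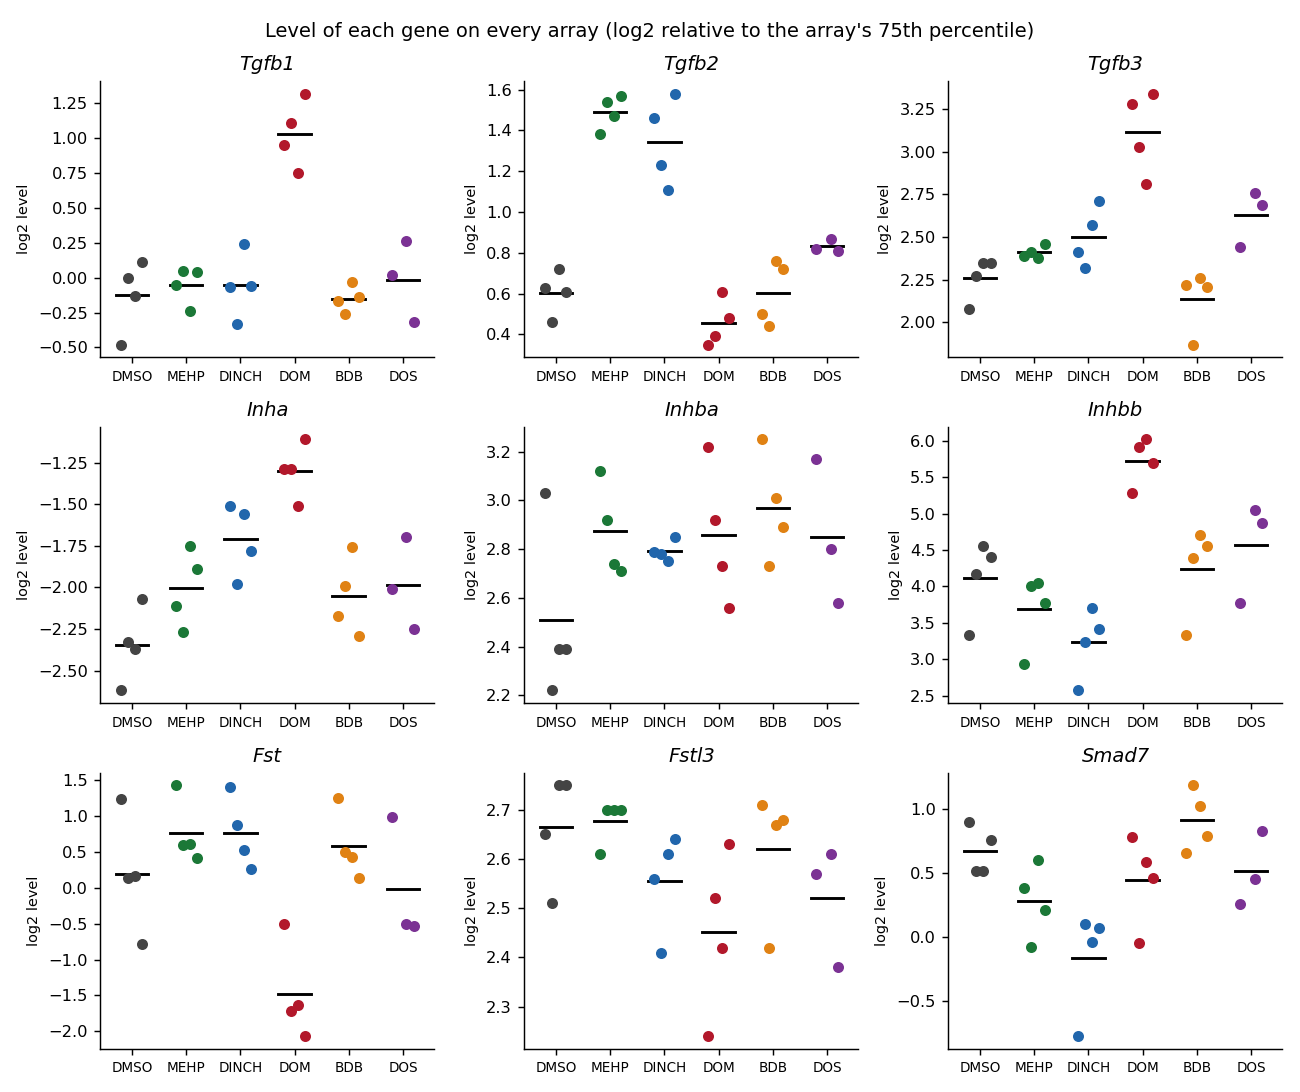
Level of the 9 genes on each of the 23 arrays, 1 panel per gene with its own y axis (log2 of the processed intensity relative to the array's 75th percentile). Points are arrays, placed from left to right by replicate number, and bars are group means. The 4 DOM arrays of Tgfb1, Tgfb3, Inha and Inhbb lie above all DMSO arrays, as do the MEHP and DINCH arrays of Tgfb2.

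**Figure D2:**
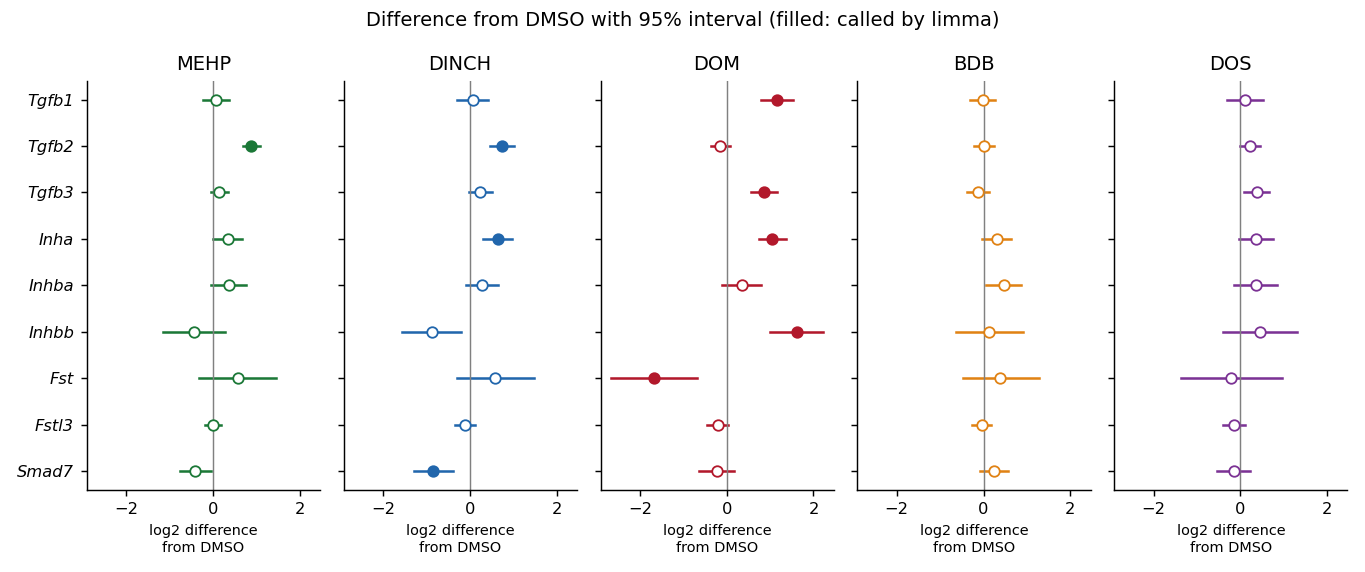
Difference of each compound from DMSO on the log2 scale (x axis) for the 9 genes (y axis). Points are limma estimates from the brightest probe, lines are 95% intervals, and filled points were called. Filled points lie on the right for Tgfb2 with MEHP and DINCH, for Inha with DINCH and DOM, and for Tgfb1, Tgfb3 and Inhbb with DOM, and on the left for Smad7 with DINCH and Fst with DOM.

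Among the TGF-beta ligands, Tgfb2 responded to MEHP and DINCH. Its brightest probe read 0.63, 0.46, 0.72 and 0.61 on the DMSO arrays of replicates 1 to 4. It read 1.38, 1.54, 1.47 and 1.57 with MEHP, and 1.46, 1.23, 1.11 and 1.58 with DINCH. Every MEHP and DINCH array lay above every DMSO array. Tgfb2 rose by 0.89 with MEHP (SE 0.08, 1.85-fold, limma adjusted p = 0.00581) and by 0.74 with DINCH (SE 0.12, 1.67-fold, limma adjusted p = 0.00921). Within the 3 slides the difference was 0.83, 0.88 and 0.97 with MEHP and 0.83, 0.64 and 0.74 with DINCH. Here and below, a value within a slide rests on 1 or 2 arrays of each group. The call with MEHP was lost without the filter on dim probes (limma adjusted p = 0.0953), and the call with DINCH was lost there and with normexp background correction, where the difference of 0.54 was below the fold threshold.

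The other probe of Tgfb2 gave the same result with MEHP and not with DINCH. It was 0.86 higher with MEHP (SE 0.11, 1.81-fold, limma adjusted p = 0.0109) and 0.42 higher with DINCH (SE 0.18, 1.34-fold, limma adjusted p = 0.165). On this probe the DINCH arrays read -1.06, -0.48, -0.58 and -0.19 against -1.09, -0.93, -1.16 and -0.81 with DMSO. Replicate 1 of DINCH was within the DMSO range on this probe, although it was the second highest DINCH array on the brighter one.

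Tgfb2 did not pass the test with DOM, BDB or DOS. The brightest probe read 0.35, 0.39, 0.61 and 0.48 with DOM, 0.50, 0.44, 0.76 and 0.72 with BDB, and 0.82, 0.87 and 0.81 on the 3 DOS arrays. The difference was -0.15 with DOM (95% interval -0.37 to 0.08), 0.00 with BDB (-0.23 to 0.24) and 0.23 with DOS (0.00 to 0.46, limma adjusted p = 0.693). All 3 DOS arrays were above the DMSO arrays. In order of mean level, Tgfb2 was at 1.49 ± 0.08 with MEHP (SD, n = 4), 1.35 ± 0.21 with DINCH (n = 4), 0.84 ± 0.03 with DOS (n = 3), 0.61 ± 0.16 with BDB (n = 4), 0.60 ± 0.11 with DMSO (n = 4) and 0.46 ± 0.12 with DOM (n = 4). The neighbours MEHP and DINCH, DOS and BDB, BDB and DMSO, and DMSO and DOM did not pass the test between them. DINCH and DOS differed by 0.51 (95% interval 0.20 to 0.82, limma adjusted p = 0.0368 over 10 pairs), below the fold threshold.

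Tgfb1 and Tgfb3 responded to DOM. Tgfb1, the most widely expressed of the ligands, read -0.48, 0.00, -0.13 and 0.11 with DMSO and 0.95, 1.11, 0.75 and 1.32 with DOM. The groups did not overlap. It rose by 1.16 (SE 0.16, 2.24-fold, limma adjusted p = 0.00113), and the difference within the 3 slides was 1.52, 0.82 and 1.21. Tgfb3, a ligand with known effects on the junctions between Sertoli cells, read 2.08, 2.27, 2.35 and 2.35 with DMSO and 3.28, 3.03, 2.81 and 3.34 with DOM. Again no DOM array reached down to a DMSO array. Tgfb3 rose by 0.85 (SE 0.14, 1.81-fold, limma adjusted p = 0.00197), with 1.07, 0.50 and 0.99 within the slides. The probes of Tgfb1 and Tgfb3 were each spotted 10 times on an array, and the median SD between spots was 0.07 and 0.06. Both calls held under all 19 other settings.

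The other compounds left no call in these ligands. The difference of Tgfb1 was 0.08 with MEHP, 0.07 with DINCH, -0.02 with BDB and 0.11 with DOS, and each changed sign under at least 1 setting. That of Tgfb3 was 0.15 with MEHP, 0.24 with DINCH, -0.12 with BDB and 0.37 with DOS (95% interval 0.09 to 0.65, limma adjusted p = 0.573). The DOS arrays of Tgfb3 read 2.44, 2.76 and 2.69, all above the DMSO arrays. The MEHP arrays of Tgfb3, from 2.38 to 2.46, also lay above the highest DMSO array, at 2.35. Tgfb2 and Tgfb3 were the 2 genes with no overlap between DOS and DMSO, where 8.14% of all genes had none.

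Of the inhibin and activin subunits, Inha rose with DINCH and DOM. It read -2.62, -2.33, -2.37 and -2.07 with DMSO. With DOM it read -1.29, -1.29, -1.51 and -1.11, and with DINCH -1.51, -1.98, -1.56 and -1.78. Neither compound's arrays overlapped those of DMSO. Inha rose by 1.05 with DOM (SE 0.14, 2.07-fold, limma adjusted p = 0.000815) and by 0.64 with DINCH (SE 0.15, 1.56-fold, limma adjusted p = 0.0276). Within the slides the difference was 1.33, 0.84 and 0.96 with DOM and 1.11, 0.37 and 0.40 with DINCH. With DOM the call was lost under 1 of 19 other settings, normexp background correction, where the difference was 0.54. With DINCH, whose change was close to the fold threshold, it was lost under 10. These included leaving out replicate 1, 2 or 3 of DMSO (limma adjusted p 0.0621, 0.0627 and 0.0792) or replicate 1, 3 or 4 of DINCH (0.0687, 0.0624 and 0.0567). The difference of Inha was 0.34 with MEHP, 0.30 with BDB and 0.36 with DOS, and none of these 3 passed the test.

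Inhbb, which encodes the beta subunit of inhibin B and activin B, had the largest rise of the 9 genes with DOM. It read 3.33, 4.17, 4.56 and 4.41 with DMSO and 5.28, 5.91, 6.02 and 5.69 with DOM. The lowest DOM array was above the highest DMSO array. Inhbb rose by 1.61 with DOM (SE 0.27, 3.05-fold, limma adjusted p = 0.00248), and this call held under all 19 other settings. Within the slides the difference was 2.27, 1.65 and 1.29. On slide 1, DOM replicates 1 and 2 were set against DMSO replicate 1 alone, the lowest DMSO array of Inhbb. With DINCH it read 2.57, 3.24, 3.70 and 3.41, overlapping DMSO. The difference of -0.88 (95% interval -1.57 to -0.20) did not pass the test (limma adjusted p = 0.0983).

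With the replicate number as a block, the same difference of -0.88 in Inhbb with DINCH was called (limma adjusted p = 0.0083). Deviations of same-numbered DINCH and DMSO arrays correlated at 0.17 to 0.50, which was not set against arrays of other numbers. From replicate 1 to 4, the DINCH array minus the DMSO array of the same number was -0.76, -0.93, -0.86 and -0.99. Inhbb was also called with the slide as a block (-0.92, limma adjusted p = 0.00971) and without DMSO replicate 1 (-1.15, limma adjusted p = 0.0375). With MEHP Inhbb read 2.93, 4.00, 4.05 and 3.77, a difference of -0.43 (limma adjusted p = 0.567). The difference was 0.13 with BDB (95% interval -0.63 to 0.90) and 0.45 with DOS (-0.40 to 1.30). For DOS, the differences between same-numbered arrays were 0.45, 0.49 and 0.46 for replicates 1, 3 and 4. Inhbb was not called with DOS when the replicate number was a block (0.47, limma adjusted p = 0.184).

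Inhba, the subunit of activin A, was not called with any compound. It read 3.03, 2.22, 2.39 and 2.39 with DMSO. The mean level lay between 2.79 and 2.97 with the 5 compounds and at 2.51 with DMSO, and each difference was positive, from 0.29 with DINCH to 0.46 with BDB. Replicate 1 of DMSO, at 3.03, was above most of the treated arrays, so every group overlapped DMSO. With BDB, Inhba was the only one of the 9 genes with an unadjusted p below 0.05 (0.0311, limma adjusted p = 0.288). Of all probes tested with BDB, 3495 of 24292 had such a p.

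Of the activin antagonists, Fst fell with DOM. It read 1.24, 0.14, 0.16 and -0.78 with DMSO and -0.51, -1.72, -1.64 and -2.07 with DOM. Fst fell by 1.67 (SE 0.44, 3.19-fold, limma adjusted p = 0.0185), though replicate 1 of DOM lay above replicate 4 of DMSO, so the groups overlapped. Within the slides the difference was -2.35, -1.79 and -1.29. On slide 1 the only DMSO array was replicate 1, the highest DMSO array of Fst. The call was lost without DOM replicate 2 (-1.6, limma adjusted p = 0.0528), without DOM replicate 4 (-1.48, 0.0523) and without the filter on dim probes (-1.67, 0.0823).

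Fst read 1.43, 0.59, 0.61 and 0.41 with MEHP and 1.41, 0.88, 0.53 and 0.26 with DINCH. The difference was 0.57 with MEHP (limma adjusted p = 0.531) and 0.58 with DINCH (0.402), and with the slide as a block that of DINCH was called (0.74, limma adjusted p = 0.034). These differences moved with single arrays. With MEHP it was 0.25 without DMSO replicate 4, 0.35 without MEHP replicate 1 and 0.92 without DMSO replicate 1, and with DINCH 0.26 without DMSO replicate 4, 0.37 without DINCH replicate 1 and 0.93 without DMSO replicate 1, with no call. The difference was 0.39 with BDB and -0.21 with DOS, and neither passed the test. Fstl3 was not called with any compound. Its mean level was 2.66 ± 0.11 with DMSO (SD, n = 4), and the difference ranged from -0.21 with DOM (95% interval -0.46 to 0.04) to 0.01 with MEHP (-0.17 to 0.20).

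The arrays of replicate 1 stood apart in Fst and Inhbb. In 6 of 6 groups replicate 1 had the highest Fst and the lowest Inhbb level of its group, for example 1.24 and 3.33 with DMSO and -0.51 and 5.28 with DOM. All replicate 1 arrays lay on slide 1, with replicate 2 of MEHP and DOM. Over the 23 arrays, which share the DMSO arrays, slides and replicate numbers, Pearson's r between Fst and Inhbb was -0.91. The same description gave 0.86 for Tgfb1 and Tgfb3, 0.80 for Tgfb1 and Inha and -0.79 for Tgfb1 and Fst. For Tgfb2, r was 0.49 with Fst, -0.39 with Tgfb1 and -0.62 with Inhbb.

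**Figure D3:**
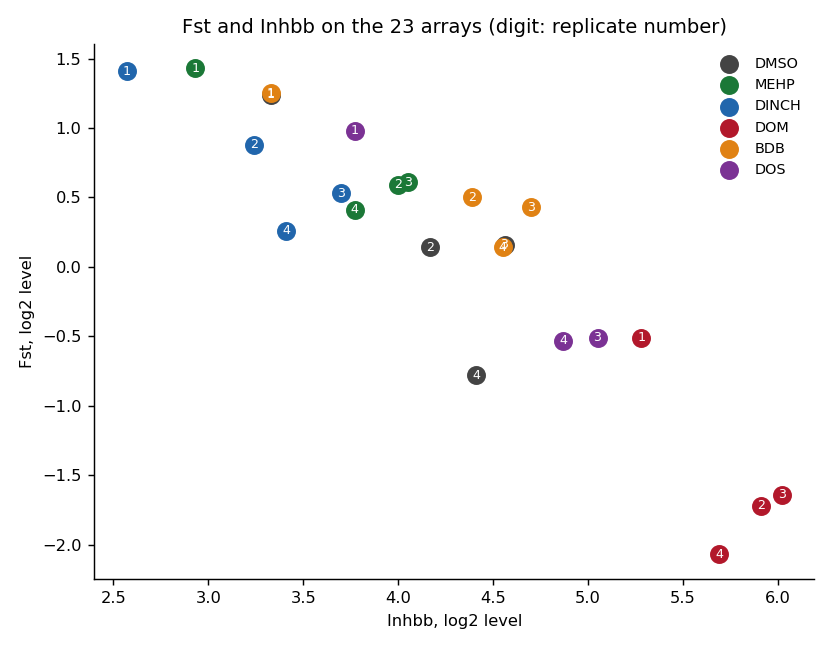
Level of Fst (y axis) against that of Inhbb (x axis) on the 23 arrays, both log2 relative to the array's 75th percentile. Colours are groups and digits are replicate numbers. The DOM arrays lie at the lower right, and within each group replicate 1 has the highest Fst and the lowest Inhbb.

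Smad7, which is itself induced by TGF-beta signalling and limits it, fell with DINCH. It read 0.90, 0.52, 0.52 and 0.76 with DMSO and -0.78, 0.10, -0.04 and 0.07 with DINCH. All DINCH arrays were below the DMSO arrays, replicate 1 by far the lowest. Smad7 fell by 0.84 (SE 0.20, 1.79-fold, limma adjusted p = 0.0301), and the difference within the slides was -1.68, -0.42 and -0.75. The call was lost under 7 of 19 other settings, among them leaving out any 1 DMSO array (limma adjusted p from 0.0551 to 0.0752) and leaving out DINCH replicate 3 (0.0502). It held without DINCH replicate 1. The difference was -0.40 with MEHP (95% interval -0.75 to -0.04, limma adjusted p = 0.252), -0.23 with DOM, 0.24 with BDB and -0.16 with DOS.

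BDB and DOS altered none of the 9 genes by limma. With BDB 1 gene (Inhba) and with DOS 2 genes (Tgfb2 and Tgfb3) had an unadjusted p below 0.05. Of all probes tested, 3495 of 24292 with BDB and 1725 of 24209 with DOS had such a p. The number of genes whose arrays did not overlap DMSO was 2 with MEHP (14.4% of all genes), 3 with DINCH (24%), 4 with DOM (39.4%), 0 with BDB (12%) and 2 with DOS. The median difference of the 9 genes was 0.15 with MEHP, 0.24 with DINCH, 0.35 with DOM, 0.13 with BDB and 0.23 with DOS, beside -0.04, -0.01, -0.08, -0.02 and -0.01 over all probes tested. MEHP, DINCH and BDB occupied other rows of the slides than DMSO, so for them the row and the compound cannot be told apart, while DOM and DOS shared the rows of DMSO.

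The compounds were compared with each other in all 10 pairs, at the same dose and time, with p-values adjusted over the 10 pairs. Of 90 combinations of gene and pair, 25 were called, and 7 of the 9 genes were called in at least 1 pair, all but Inhba and Fstl3. The 4 pairs with DOM held 19 of them. In the pairs with DOM, 14.7% to 26.1% of all genes were called, and in the other pairs 1.44% to 9.94%. The concentration in pairs with DOM was thus also seen over all genes and is not particular to these genes.

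DOM and DOS, the same dioctyl diester built on a maleate or a succinate, differed in 3 of the 9 genes, where 14.7% of all genes were called. Tgfb1 was 1.05 higher with DOM (95% interval 0.64 to 1.46, 2.07-fold, limma adjusted p = 0.00638), Inhbb 1.16 higher (0.46 to 1.87, 2.23-fold, 0.0381) and Inha 0.69 higher (0.33 to 1.05, 1.61-fold, 0.0207). Inhbb read 3.77, 5.05 and 4.87 with DOS, all below the 4 DOM arrays. The difference of Fst was -1.47 and did not pass the test (95% interval -2.50 to -0.43, limma adjusted p = 0.0634), and nor did Tgfb3 (0.49, 0.13 to 0.84, 0.0731). The difference of Tgfb2 was -0.38 (-0.62 to -0.14, limma adjusted p = 0.0454), below the fold threshold. The intervals for Inhba (-0.44 to 0.45), Smad7 (-0.56 to 0.42) and Fstl3 (-0.35 to 0.22) included 0. The count of 3 was 5 without DOM replicate 1 and with the slide as a block, and 1 (Tgfb1) without DOM replicate 2, DOS replicate 1 or DOS replicate 4.

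MEHP and DOM differed in 6 of the 9 genes, where 18.6% of all genes were called. Tgfb2 (1.03, limma adjusted p = 0.000303) and Fst (2.25, 0.00317) were higher with MEHP. Inhbb (-2.04, 0.00144), Tgfb1 (-1.08, 0.00116), Inha (-0.71, 0.00865) and Tgfb3 (-0.70, 0.00554) were higher with DOM. DINCH and DOM differed in 5 genes (background 22.2%), with Inhbb 5.62-fold lower with DINCH (-2.49, limma adjusted p = 0.000353) and Fst 4.76-fold higher (2.25, 0.00233). DOM and BDB differed in Tgfb1, Tgfb3, Inha, Inhbb and Fst (background 26.1%), with a difference of 1.48 in Inhbb and -2.06 in Fst.

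MEHP and DINCH did not differ in any of the 9 genes by limma, where 3.48% of all genes were called. Only 1 gene (Tgfb2, on its dimmer probe) had an unadjusted p below 0.05, a share not counted over all genes for this pair. The interval of the difference was -0.12 to 0.41 for Tgfb2 on its brightest probe, -0.62 to 0.03 for Inha, -0.20 to 1.11 for Inhbb and -0.04 to 0.92 for Smad7. A call with DINCH and none with MEHP therefore does not show that the compounds differ. Both MEHP and DINCH differed from BDB in Tgfb2 (0.88 and 0.74, limma adjusted p = 0.000653 and 0.00527). On the dimmer probe of Tgfb2 the difference from BDB was called with MEHP (0.98, limma adjusted p = 0.000608) and not with DINCH (0.55, 0.0563). Both compounds also differed from BDB in Smad7 (-0.64 and -1.08, limma adjusted p = 0.0292 and 0.00707). In these pairs 3.22% and 9.94% of all genes were called. MEHP differed from DOS in Tgfb2 (0.65, limma adjusted p = 0.00201; background 1.44%), and DINCH from DOS in Inhbb (-1.33, limma adjusted p = 0.0321; background 5.9%). BDB and DOS differed in none of the 9 genes (3 with an unadjusted p below 0.05; background 2.25%).

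**Figure D4:**
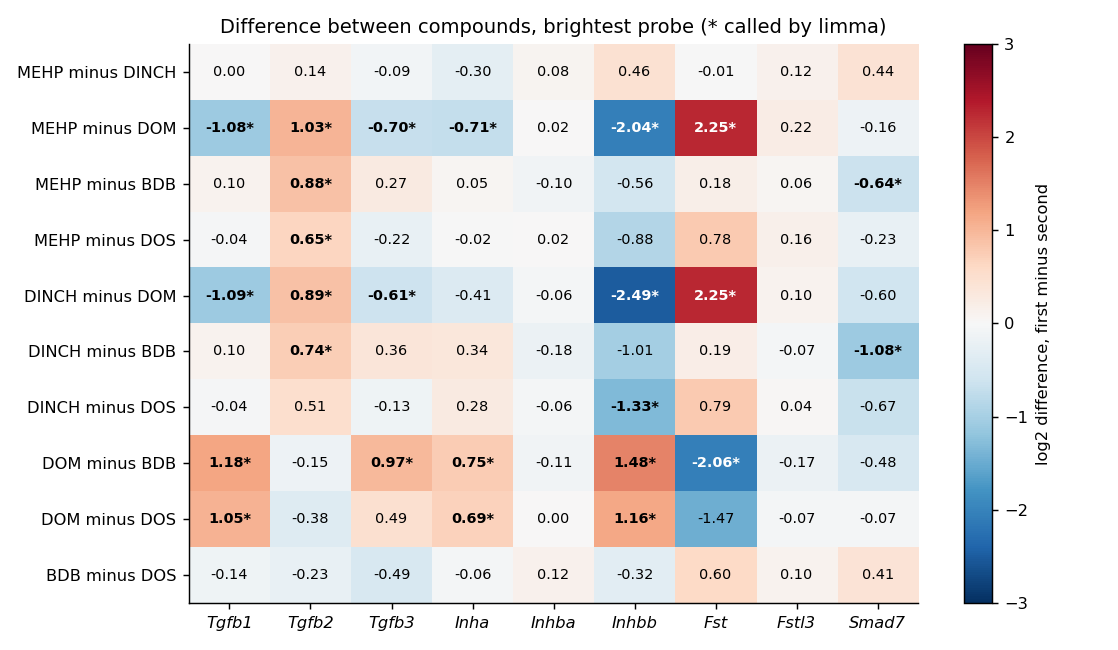
Difference between compounds, first minus second, on the log2 scale for the 10 pairs (rows) and 9 genes (columns), from the brightest probe. An asterisk marks a limma call. Called cells lie mostly in the pairs with DOM, where more of all genes were called too, and Inhba and Fstl3 have none.

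Beyond these 9 genes, 74 other genes of the pathway were listed by role, and 54 or 55 of them were tested with each compound. MEHP altered 3 of 55 (2 higher, 1 lower), DINCH 6 of 54 (1 higher, 5 lower) and DOM 16 of 55 (12 higher, 4 lower). These counts stand beside 1.69%, 8.26% and 20.5% of all genes called with MEHP, DINCH and DOM. BDB and DOS altered none of 54 by limma, with 9 and 7 genes at an unadjusted p below 0.05. Of all probes tested, 3495 of 24292 with BDB and 1725 of 24209 with DOS had such a p. The median difference of the list was -0.07, -0.15, 0.18, -0.06 and 0.07 in this order.

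With MEHP, the target genes Tgfbi, a secreted matrix protein, and Id3, an inhibitor of DNA binding, rose by 0.92 (limma adjusted p = 0.0121) and 0.74 (0.0155). Dcn, which encodes decorin, a proteoglycan that binds TGF-beta, was lower (-1.12, limma adjusted p = 0.0403). The call was lost under 9 of 19 other settings for Dcn, 3 for Tgfbi and 4 for Id3. With normexp background correction the difference of Tgfbi was 0.34 (limma adjusted p = 0.203), and with all groups in 1 fit Id3 was not called (0.104). Leaving out MEHP replicate 2 ended all 3 calls. Id3 was also higher by 0.82 with DINCH (limma adjusted p = 0.0802), 0.69 with DOS (0.359) and 0.22 with BDB (0.488), without a call. Its rise with DOM is given below. Tgfbi was called with DOM (0.63, limma adjusted p = 0.0187) and not with DOS (0.62, 0.45), DINCH (0.23, 0.477) or BDB (0.11, 0.822).

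With DINCH, 5 listed genes fell. They were Pmepa1, an inhibitor of SMAD signalling (-1.38, limma adjusted p = 0.0412), Fbn1, the fibrillin that anchors latent TGF-beta complexes (-1.26, 0.022), Grem1, an antagonist of bone morphogenetic proteins (-1.24, 0.0436), and the targets Id1 (-0.79, 0.00692) and Snai2 (-0.72, 0.0135). Pmepa1 and Fbn1 each lost the call under 7 of 19 other settings and Grem1 under 8, and Id1 and Snai2 under 1. Without DINCH replicate 1 or DINCH replicate 4, 2 of the listed genes were called.

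With DOM, where 20.5% of all genes were called, 6 of 11 targets were called, of which 5 rose, and 3 of 5 other ligands, of which 1 rose. Id3 rose by 2.87 (SE 0.22, limma adjusted p = 0.000165) and Id1 by 0.91 (SE 0.22, 0.0128), whereas Ccn2, a matricellular target, was lower (-1.34, SE 0.38, 0.027). Thbs1, the thrombospondin that can activate latent TGF-beta, rose by 1.81 (limma adjusted p = 0.000751), and Smad6, an inhibitory SMAD, by 1.42 (0.00508). Gdf15, a stress-induced ligand, was lower (-1.38, limma adjusted p = 0.00335). Ccn2 lost its call under 7 of 19 other settings, Id1 under 1, and the other 4 under none. Among the receptors and co-receptors 1 of 11 was called, and among the signal transducers 1 of 8, both higher.

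**Figure D5:**
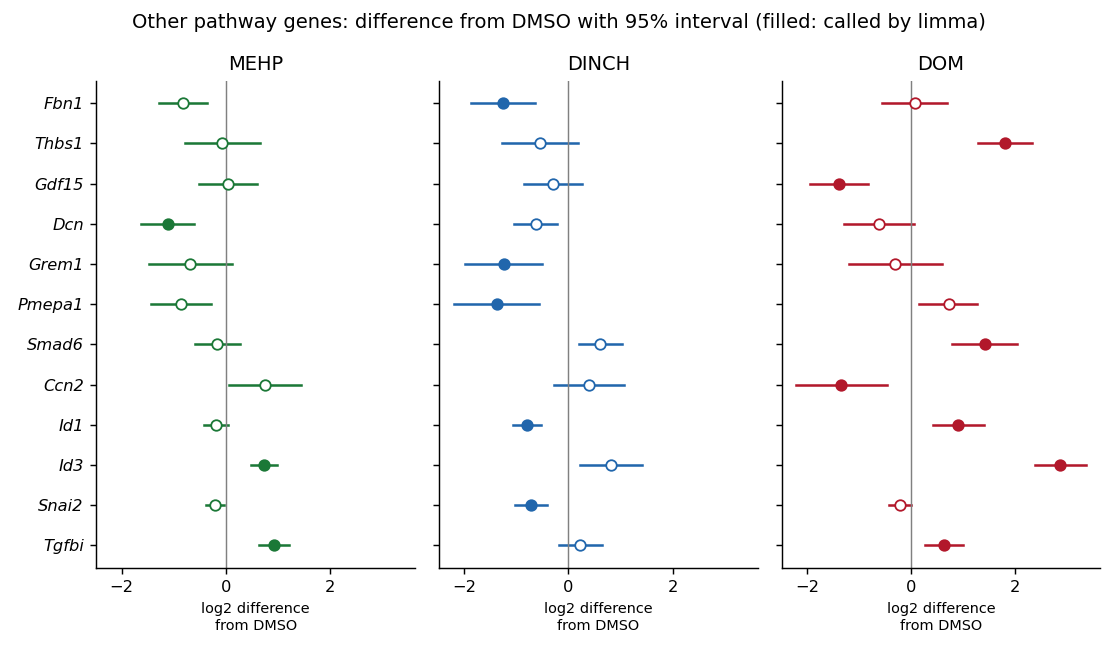
Difference from DMSO on the log2 scale with 95% interval (x axis) for the 12 other pathway genes named in the text (y axis), with MEHP, DINCH and DOM. Filled points were called. Id3 with DOM lies farthest to the right, and the filled points of DINCH lie on the left.

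For each of the 7 genes called with a compound, the named genes of most similar level over the 23 arrays were sought among 11157 genes above background on all of them. Pearson's r is a description here, since arrays share groups, slides and replicate numbers. Nearest to Inhbb were Itgb3 (r = 0.98), Trpc6 (0.98) and Adamts2 (0.97), and nearest to Fst were Sgo2a, Hmgn5 and Alkbh2 (0.96 each). Tgfb1 was most like B4galnt1 (0.97), Trpm4 (0.96) and Clip3 (0.95), and Tgfb3 most like Sall2 (0.95), Plekhg2 (0.95) and Shisa5 (0.94). The nearest genes of Inha (Zfpm1, Arrdc2 and Tctn1, 0.89 each), Smad7 (Eaf1 at 0.87, Pdhx and Tbc1d5 at 0.86) and Tgfb2 (Fndc4 at 0.85, Lrrc75a and Bcl3 at 0.84) had lower values.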

How the data were processed

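Gene expression was measured in TM4 cells with 1-colour Agilent mouse arrays, 1 per culture, on 3 slides. The authors scanned the arrays and deposited linear spot intensity from Agilent's software, background-subtracted, with outlier spots marked and no scaling across arrays. A matrix of log2 values deposited by the authors, shifted to the 75th percentile and centred per probe, served only as an alternative.

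Here log2 of the processed intensity (floor 1) was expressed against each array's 75th percentile. Outlier spots (102 to 187 an array) were dropped, and repeated spots averaged. Symbols came from RefSeq accessions, which named 26582 probes. Testing required a probe to be well above background, and not below the array's 20th percentile, on all arrays of 1 or more of the groups compared. Each pair of groups was fitted alone with limma 3.58.1 (R 4.3.3, data.table version 1.17.8), with Benjamini-Hochberg adjustment over all tested probes. A call of any probe counted for its gene, and the value given is that of the brightest probe. Figures used Python 3.11.15 and matplotlib 3.10.9. The steps were tested on simulated data. Precision is limited by the small number of arrays in each group.

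The members, gene lists and tests were chosen with earlier results of these data known. All 9 members are named, with up to 6 called pathway genes per compound and the 3 genes most like each called member. Replicate numbers are shared between groups. The deviations of same-numbered arrays correlated at 0.17 to 0.50 for DINCH, 0.25 to 0.43 for BDB and 0.20 to 0.45 for DOS. They correlated at -0.14 to 0.45 for MEHP and 0.04 to 0.43 for DOM. Arrays of different numbers were not correlated, so this check does not establish a pairing. The lowest values for MEHP, DOM and DINCH came from same-numbered arrays on different slides, so number and slide were not separated. Alternatives were quantile normalization, normexp background correction, no dim-probe filter, detection on 1 array, slide or replicate number as a block, 1 fit of all groups, outlier spots kept, brightest probes only, a variance trend, the authors' table and leaving out each array. Viability and qPCR were not analysed here, and some genes that meet the naming rule are not reported here.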

Additional observations from a re-analysis of the deposited data

Results flagged for a closer look

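In groups of 4 arrays, the gap between the highest or lowest array and the next was set against the whole range of the group, and 5 of 50 combinations of probe and group had an array far from the others. Chance gives about 1 in 20, and the 3 DOS arrays were not looked at. The lowest DINCH array of Smad7 was at -0.78 (replicate 1), with the others between -0.04 and 0.10. The dimmer Tgfb2 probe had its highest MEHP array at 0.10 (replicate 4), with the others at -0.23 to -0.22. The lowest BDB array of Tgfb3 was at 1.87. The lowest arrays of Fstl3 were at 2.61 with MEHP and at 2.42 with BDB. Their origin was not tested.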

How the results depend on the processing

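Of 846 differences of the 9 genes from DMSO under other settings, 801 kept call and direction, 24 lost the call, 4 gained one and 17 changed sign, none of the last called. Without the filter on dim probes more probes entered the adjustment, and the calls fell to 0 with MEHP and 0 with DINCH among the 9 genes, to 0 for DOM against DOS, to 13 over the 10 pairs, and to 0, 0 and 7 for the pathway list with MEHP, DINCH and DOM. With detection on 1 array they were 1 with DINCH, 1 for DOM against DOS and 2 for the list with DINCH. With normexp they were 1 with DINCH, and 5 with MEHP and 1 with BDB for the list. The slide as a block gave 5 for DOM against DOS and 1 for the list with BDB, where all groups in 1 fit also gave 1. For the list with MEHP, a variance trend gave 6 and the brightest probe alone 6. The cause was not tested.

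With the replicate number as a block, the list had 7 calls with MEHP and 19 with DOM. For these compounds the lowest correlations of same-numbered arrays (-0.14 and 0.04) were between arrays on different slides. For DINCH the block added Inhbb (4 members called). It changed no call of the 9 genes with the other compounds, and gave 31 over the 10 pairs, among them 4 for DOM against DOS.

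Leaving out 1 array at a time gave 1 to 1 members called with MEHP, 1 to 3 with DINCH, 4 to 5 with DOM, and 0 to 0 with BDB and with DOS. The value with DINCH was 1 without DMSO replicate 2, DMSO replicate 3 or DINCH replicate 3. For DOM against DOS it gave 1 to 5, and over the 10 pairs 22 to 27. The list had 0 to 7 calls with MEHP (0 without MEHP replicate 2, 1 without MEHP replicate 4, 7 without DMSO replicate 1), 2 to 7 with DINCH (2 without DINCH replicate 1 or 4, 3 without DMSO replicate 2 or 3), 11 to 15 with DOM, and 0 with BDB and DOS.

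Leaving out 1 array at a time, the differences that changed sign at least once were Tgfb1 at -0.04 to 0.16 with MEHP, -0.05 to 0.16 with DINCH, -0.14 to 0.06 with BDB and -0.03 to 0.27 with DOS, Inhbb at -0.13 to 0.43 and Fstl3 at -0.10 to 0.02 with BDB, Fstl3 at -0.04 to 0.04 with MEHP, and Fst at -0.70 to 0.14 with DOS. None was called. Fstl3 with MEHP was -0.06 with normexp and -0.04 without DMSO replicate 2, and with BDB 0.02 without BDB replicate 2. Tgfb1 was -0.04 with MEHP and -0.05 with DINCH without DMSO replicate 1, and -0.03 without DINCH replicate 3. With BDB it was 0.01 without BDB replicate 2, 0.02 without DMSO replicate 2 and 0.06 without DMSO replicate 4, and with DOS -0.01 without DMSO replicate 1 and -0.03 without DOS replicate 3. Inhbb with BDB was -0.13 without DMSO replicate 1 and -0.02 without BDB replicate 3. Fst with DOS was 0.04 with the slide as a block, 0.14 without DMSO replicate 1, 0.04 without DOS replicate 3 and 0.05 without DOS replicate 4. Counts of calls within a slide were not run, since a slide held too few arrays.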
